A study of Homo sapiens with 2 samples.

Results

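The D-type cyclins, their partner kinases and the inhibitors of those kinases were compared between 2 lines made from THP-1, cells of a human acute monocytic leukaemia that carry a KMT2A fusion. The group is 10 genes listed by symbol: the D-type cyclins CCND1, CCND2 and CCND3, the kinases CDK4 and CDK6, the CIP/KIP inhibitors CDKN1A, CDKN1B and CDKN1C, and the INK4 inhibitors CDKN2C and CDKN2D. A probe belonged to the group if the platform annotation gave it 1 gene symbol and that symbol was on the list. This found 13 probes for 9 of the 10 genes, out of 30113 probes with 1 symbol for 20046 genes. CDKN2C was not analysed here, since the annotation used pairs it with no probe. Of the 13 probes, 9 were detected on at least 1 array and 8 on both, where detected means a detection p-value under 0.01. They stood for 8 genes, and 7 of these were detected on both arrays.

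One line, called shLY6E here, stably expresses a short hairpin RNA against LY6E, and the other, shCtrl, stably expresses a scrambled hairpin. Both were kept in puromycin, and the labels do not say whether either is a clone or a pool. Total RNA of each was read on 1 single-colour Illumina array, so no difference could be checked against replicates or tested. Each difference is the normalized log2 intensity in shLY6E less that in shCtrl, or its fold.

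Passage from G1 into S phase depends on the retinoblastoma protein, which holds E2F transcription factors inactive until it is phosphorylated. Mitogens raise the D-type cyclins, which bind CDK4 or CDK6 and begin that phosphorylation, and cyclin E with CDK2 completes it. INK4 proteins bind CDK4 and CDK6 and keep cyclin D away, whereas CIP/KIP proteins bind whole cyclin and kinase complexes and block CDK2 most strongly. In myeloid cells, exit from the cycle accompanies maturation, and CDKN1A is known to be induced when monocytic lines differentiate.

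LY6E itself was read at a deposited intensity of 253 in shLY6E and 1049 in shCtrl, and after normalization shLY6E held 27.3% of the shCtrl level. In all, 34.6% of 47321 probes were detected in shLY6E and 34.4% in shCtrl, and the shLY6E array was dimmer, with a median ratio of deposited intensity of 0.735 over named probes detected on both arrays. The faintest detected probe had an intensity of 106 in shLY6E and 129 in shCtrl. Of the monocytic markers, 6 of 6 with a probe were detected on both arrays (ITGAM, CSF1R, SPI1, LYZ, CD14 and MPO), and none (0) of the erythroid, megakaryocytic, epithelial or stromal markers was. Of 5 lymphoid markers with a probe, 1, CD79A, was detected in shLY6E only, on probes of intensity 112 and 111 that lie near the limit. By deposited intensity the markers differed unevenly. CD14 (512 against 153), LYZ (3991 against 1140) and CSF1R (1759 against 1355) were brighter in shLY6E, and the brighter SPI1 probe read 2745 against 2674. ITGAM (201 against 346) and MPO (154 against 180) were dimmer there. After normalization, on the brightest probe of each, CD14 stood at 3.36, LYZ at 2.39, CSF1R at 0.95, SPI1 at 0.53 and MPO at 0.32. ITGAM alone was below 0, at -0.48. The part of these markers in the differences below was not tested. In such bulk RNA, a change in the share of cells that express a gene and a change in the RNA per cell cannot be told apart.

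Across the group the largest differences were a lower CDKN1A and a higher CCND1 in shLY6E, and neither reached 2-fold. CDKN1A was 1.68-fold lower and CCND1 was 1.66-fold higher. Those were the 2 of 9 detected probes at least 1.5-fold apart, where 16.3% of all 13849 detected named probes were. By direction, 1 of 9 was higher by that fold against 7.27% of all, and 1 of 9 lower against 9.04%. With median scaling in place of quantile normalization, the split over all probes changed from 1007 higher and 1252 lower (44.6% higher) to 1283 and 1041 (55.2% higher). None (0) of the 9 was at least 2-fold apart in either direction, against 2.38% of all probes higher and 2.33% lower. Of the 9 differences 5 were below 0, as were 52.9% over all probes. With 9 probes, these shares do not set the group apart from the other probes. None (0) of the members lies on chromosome 10, where 300 of 324 genes detected on both arrays were below 0, with a median of -0.80.

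With no replicate arrays, the available yardstick was the disagreement between different probes of a gene on these same 2 arrays. Over 2254 genes with several probes detected on both, the within-gene SD of the difference was 0.28. It was 0.18 among probes with a mean log2 intensity of at least 8, and 0.30 among dimmer ones. Both values rest on genes with several probes of that class (693 and 1014 genes), so bright probes were not set against dim ones. Such an SD covers disagreement between probes, which may be listed with different transcripts of a gene, and not the variation between cultures.

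**Figure D1:**
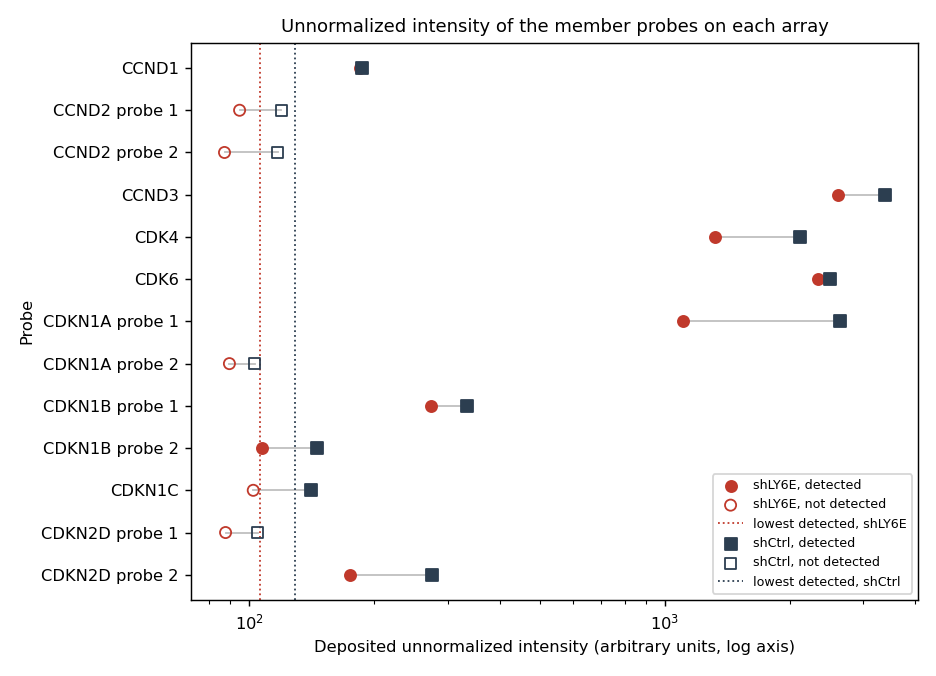
Deposited unnormalized intensity of each of the 13 member probes on the shLY6E array (circles) and the shCtrl array (squares), on a log axis; open symbols are not detected and dotted lines mark the faintest detected probe of each array. The symbols of CCND1 lie on each other (185 and 187), those of CDKN1A probe 1 are the farthest apart (1107 and 2633), and both CCND2 probes are open. Levels of different probes are not comparable with each other.

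Among the D-type cyclins, CCND3 differed little, CCND1 was higher in shLY6E and CCND2 was not detected. CCND3, the D-type cyclin required in many blood lineages, had a deposited intensity of 2607 in shLY6E and 3387 in shCtrl. Its normalized log2 intensities were 11.55 and 11.47, a difference of 0.08 that lies inside the spread between probes. CCND1, a growth-factor-induced cyclin that is often activated in cancer, was read at almost the same deposited intensity on both arrays, 185 in shLY6E and 187 in shCtrl.

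Because the shLY6E array was dimmer, an equal reading stood above the typical probe, and the normalized log2 intensities of CCND1 were 7.06 and 6.33. The difference of 0.73 was 2.41 times the SD between dim probes, and 4.63% of all detected named probes stood higher. Among the 8896 dimmer probes, 8.33% were at least 1.5-fold higher and 10.4% lower, against 1 and 0 of the 5 dim member probes. The value rested on 1 dim probe and moved with the processing: it was 1.29-fold higher without background correction and 1.46-fold with an offset of 50, both short of 1.5-fold. Both settings shrink dim differences by construction. In the authors' processed intensities CCND1 stood at 121 and 67.5.

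CCND2, which many lymphoid and some myeloid cells use, had 2 probes, and neither was detected on either array. The first read 94.8 in shLY6E and 120 in shCtrl, with detection p-values of 0.295 and 0.0649. The second read 87.2 and 117, with detection p-values of 0.769 and 0.0974. Both arrays gave readings under the faintest detected probe, so no difference is given.

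The kinases were both well detected, and both differed by less than 1.5-fold. CDK6, a catalytic partner of D-type cyclins that is prominent in blood progenitors, had a deposited intensity of 2330 in shLY6E and 2486 in shCtrl. Its log2 intensities were 11.39 and 10.98, which made it 1.33-fold higher in shLY6E. This difference of 0.41 is larger than the SD of 0.18 between bright probes, and 13.2% of all detected named probes stood higher. Without background correction CDK6 (0.39) stood above CCND1 (0.37) as the highest of the group, and under every other setting tried CCND1 was highest.

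CDK4, the other kinase partner, had a deposited intensity of 1316 in shLY6E and 2111 in shCtrl. The log2 intensities were 10.57 and 10.73, a difference of -0.16, within the SD between bright probes. MYC, whose protein is a known activator of CDK4 transcription, differed by -0.17 on its brighter probe and by -0.06 on the other. The CDK4 promoter is shown because it holds the sites through which MYC is known to act on it. It covers chr12:57752261-57752560, minus strand, GRCh38.p14, from 250 bases before to 50 bases after the gene start in RefSeq, and capitals mark the E-box letters CACGTG, which read alike on both strands:
CDK4: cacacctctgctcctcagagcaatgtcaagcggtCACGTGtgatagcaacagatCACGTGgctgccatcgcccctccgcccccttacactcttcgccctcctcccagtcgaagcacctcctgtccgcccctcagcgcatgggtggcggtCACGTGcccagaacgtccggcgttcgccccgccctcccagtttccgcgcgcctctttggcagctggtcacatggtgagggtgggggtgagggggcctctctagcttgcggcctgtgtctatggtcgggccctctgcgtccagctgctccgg

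The E-box letters occur 3 times in it, with no overlap with its 3 matches to the GC box letters GGGCGG. Of 35116 RefSeq promoter entries of this length, 7.26% hold the E-box letters at least once and 0.094% at least 3 times. Of the 10 members 7 have entries, and no entry of the others holds more than 1 match. These matches describe the letters and are not evidence of binding in these cells.

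**Figure D2:**
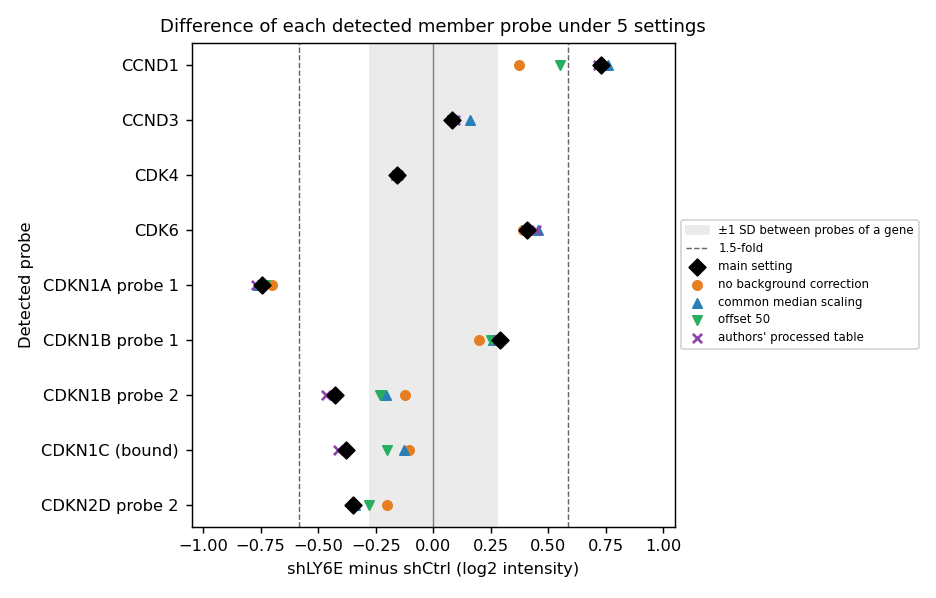
Difference of each of the 9 detected member probes, shLY6E minus shCtrl in log2 intensity, under the main setting (diamonds) and 4 other ways of processing; the grey band is ±1 SD between probes of a gene (0.28) and dashed lines mark 1.5-fold. CDKN1A probe 1 lies beyond 1.5-fold under all 5, between -0.77 and -0.70, whereas CCND1 ranges from 0.37 to 0.76.

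Among the CIP/KIP inhibitors CDKN1A was lower in shLY6E, the CDKN1B probes disagreed, and CDKN1C was detected in shCtrl only. CDKN1A, which encodes p21 and halts the cycle by inhibiting cyclin and CDK2 complexes, had a deposited intensity of 1107 in shLY6E and 2633 in shCtrl. The log2 intensities were 10.32 and 11.07, which puts shLY6E at -0.75 relative to shCtrl, 59.6% of its level. It was the lowest of the group under the main setting and under the 8 alternatives run by probe. The difference was 4.10 times the SD between bright probes. That SD comes from genes with several bright probes, whereas CDKN1A had 1 detected probe, and over all genes with several probes the SD was 0.28. Of all detected named probes 5.27% stood lower. Among the 4953 bright probes 6.64% were at least 1.5-fold lower and 5.37% higher, against 1 and 0 of the 4 bright member probes.

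The second CDKN1A probe, listed with another transcript of the gene, was not detected, at 89.6 and 103 with detection p-values of 0.635 and 0.783. The CDKN1A difference thus rests on 1 probe. In the authors' processed intensities that probe stood at 1322 and 2262, a ratio of 0.584.

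The CDKN1A promoter is shown because this gene had the largest difference of the group. It covers chr6:36678464-36678763, plus strand, GRCh38.p14, from RefSeq, and capitals mark the GC box letters GGGCGG, recognised by SP1-family factors and searched on both strands:
CDKN1A: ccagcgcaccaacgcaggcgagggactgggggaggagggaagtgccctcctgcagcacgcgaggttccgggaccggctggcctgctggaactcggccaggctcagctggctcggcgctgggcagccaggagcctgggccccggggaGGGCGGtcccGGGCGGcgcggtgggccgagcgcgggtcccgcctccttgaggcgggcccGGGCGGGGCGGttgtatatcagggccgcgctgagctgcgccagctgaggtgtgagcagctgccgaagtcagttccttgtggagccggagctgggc

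It holds 4 matches, all in the printed direction, and the last pair share 1 base. Of the promoter entries, 45.0% hold at least 1 match and 9.06% at least 4, so the letters are common. It holds 0 matches to the E-box letters. SP1, an activator that binds GC boxes, was 1.22-fold lower on its probe. Its relative SP3 was 1.11-fold lower on the brightest of its probes, but its other probes stood at 0.03 and 0.39, so no direction is given.

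CDKN1B, which encodes p27, the inhibitor that restrains quiescent cells, gave opposite directions on its 2 probes. The brighter probe read 274 in shLY6E and 334 in shCtrl, which is 1.22-fold higher in shLY6E after normalization. The dimmer probe read 107 and 145, which is 1.34-fold lower, and its detection p-value of 0.0065 in shLY6E was close to the threshold. Its difference of -0.43 was -0.12 without background correction and -0.21 with median scaling. The gap between the probes was 0.71 (0.32 without background correction and 0.47 with median scaling), and 8.83% of the 2254 genes with several such probes had a gap at least as large, so no direction is given for CDKN1B.

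CDKN1C, which encodes p57, an imprinted inhibitor of developing tissues, was detected in shCtrl only. It read 102 in shLY6E, with a detection p-value of 0.0468, and 141 in shCtrl, with a detection p-value of 0.0026. Taken against the faintest detected probe of the shLY6E array, its bound was 1.30-fold lower there, and this bound moved with the processing: it was 1.08-fold without background correction, 1.09-fold with median scaling and 1.15-fold with an offset of 50. Both readings were near background.

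CDKN2D was the INK4 member that could be compared. It encodes p19, a small ankyrin-repeat protein that binds CDK4 and CDK6. One of its 2 probes read 175 in shLY6E and 275 in shCtrl, with log2 intensities of 6.92 and 7.27 and a value 1.27-fold lower in shLY6E. The difference of -0.35 is slightly larger than the SD of 0.30 between dim probes, and it was -0.20 without background correction. The other probe, listed with another transcript, read 87.7 and 105 and was not detected on either array.

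**Figure D3:**
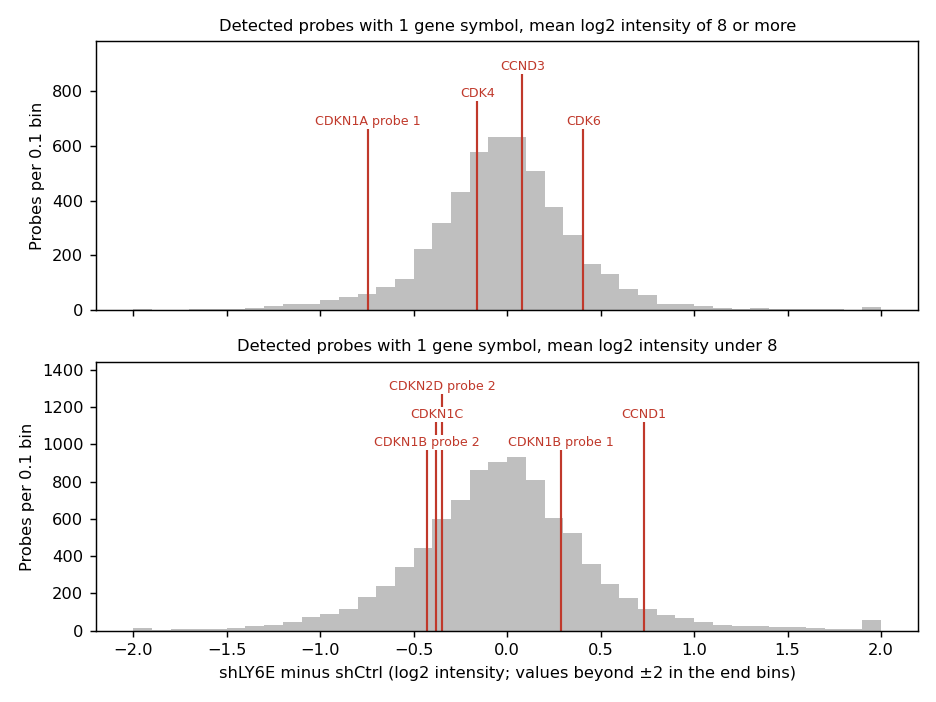
Number of detected named probes in bins of 0.1 by their difference, shLY6E minus shCtrl in log2 intensity, for bright probes (upper panel) and dim probes (lower panel), with red lines at the detected member probes. CDKN1A probe 1 (-0.75) and CCND1 (0.73) stand in the tails, and the other 7 lie between -0.43 and 0.41.

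The rest of the G1 pathway, with other cyclins and CDKs, was described through 8 lists of genes. Each gene was represented by its brightest detected probe, and lists share CCNE1, CCNE2, CCNA2 and E2F1. Over all 10565 detected genes the median difference was -0.04, with 6.55% higher and 9.63% lower by 1.5-fold or more. List medians ran from -0.15 to 0.06, and 0 genes on any list were at least 2-fold apart, against 2.27% of all genes higher and 2.55% lower.

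Cyclin E, cyclin A and CDK2, which act after the D-type cyclins, differed by less than 1.5-fold in all 7 detected of 8 genes, with a median of -0.09. CCNA1, a cyclin of germ and myeloid leukaemia cells, stood at -0.37, and CDC25A, the phosphatase that activates CDK2, at 0.35 with its other probe at 0.38. CDK2 gave -0.31 on its brighter probe and 0.27 on the other. SKP2, the ubiquitin ligase subunit that marks p27 for degradation, gave -0.25, with other probes at -0.17 and 0.42. CCNE2 was not detected.

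All 13 pocket protein and E2F genes were detected, 9 above 0 and 4 below, with a median of 0.06. E2F5, a repressive E2F, was 1.54-fold higher and the 1 member at least 1.5-fold apart, on a dim probe that read 145 and 154. Without background correction and with an offset of 50 no gene of the list (0) was 1.5-fold higher, and the highest stood at 0.25 and 0.41. E2F8 stood at -0.38, E2F6 at 0.34 and RB1, which encodes the retinoblastoma protein, at 0.27. Among genes that E2F factors are known to control, 16 of 19 detected were below 0, where 54.4% of all detected genes were. With the mean over a gene's probes 13 of the 19 were below 0 (68.4%, against 53.8% of all detected genes). With median scaling 14 were (73.7%, against 48.7% of all detected genes). Counting only genes detected on both arrays, 15 of 18 were. Of the 19, 3 were at least 1.5-fold lower and 1 higher, with a median of -0.10. The count of 3 was 2 without background correction, with median scaling and with the mean over a gene's probes. It was 4 with measured differences in place of bounds.

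CDT1, which licenses replication origins, was 1.77-fold lower, the helicase subunit gene MCM7 1.54-fold lower and the thymidine kinase gene TK1 1.51-fold lower. RRM2, the ribonucleotide reductase subunit gene, was 1.74-fold higher. The other probes of MCM7 went the opposite way, at 0.31 and 0.98, the first a bound.

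Of the remaining INK4 genes, CDKN2A was not detected (100 in shLY6E and 119 in shCtrl). CDKN2B passed the threshold in shLY6E only, at 107 against 111, with a bound of 1.04-fold higher (0.06 in log2). With a detection p-value under 0.05 its brightest detected probe stood at 0.04, so the bound is not a minimum for the gene. CDKN3, a phosphatase that acts on CDK2, was 1.22-fold lower. The CDK-activating kinase and the chaperones that fold CDK4 lay within 1.5-fold in 6 of 6 genes. Their largest differences were -0.29 for the kinase CDK7, -0.24 for its cyclin CCNH, 0.17 for the chaperone adaptor CDC37 and 0.07 for HSP90AA1.

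Genes that turn over cyclin D and p27 also lay within 1.5-fold, in 12 of 12 detected of 13 genes, 6 above 0 and 6 below. With the mean over a gene's probes 11 of the 12 did, the highest at 0.72. With measured differences in place of bounds 11 did, the highest at 0.86. DDB1, the adaptor of CUL4 ubiquitin ligases, was 1.42-fold higher, and its other probes gave 0.57 and a bound of 1.08. CUL1, the scaffold of SCF ligases, stood at -0.42, FBXO4, an F-box protein linked to cyclin D1, at -0.37, and COPS5, a COP9 signalosome subunit, at -0.35.

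Of 19 detected regulators of the inhibitor genes, 13 were below 0 and 6 above, and 1 was at least 1.5-fold apart. That was BMI1, a Polycomb repressor of the INK4 locus, at 1.74-fold lower, and it lies on chromosome 10. MXD1, a MYC antagonist, stood at 0.58, just under the 1.5-fold threshold, and ZBTB17, whose product Miz-1 activates CDKN1A, was 1.49-fold lower. FOXO3, an activator of CDKN1B, stood at 0.44, with its other probe at 0.77.

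Of 26 detected genes on the list of other cyclins, kinases and related genes, 6 were at least 1.5-fold lower and 1 higher, with a median of -0.15. The count of 6 moved with the processing: it was 3 with an offset of 50 and 0 without background correction, where the lowest gene stood at -0.57. Over all 10565 detected genes the count at least 1.5-fold lower fell too, from 1017 to 604 and 332 under these settings. CDK2AP2, a relative of the CDK2-binding protein gene CDK2AP1, was 1.90-fold lower and CDK20 1.78-fold lower, with its other probe at -0.69. CDK18 was 1.65-fold lower and CDK5R1, the activator of CDK5, 1.58-fold lower. CDK1, the mitotic kinase, was 1.66-fold lower and lies on chromosome 10; without the genes of that chromosome the list median was -0.08. CDK11A was 1.65-fold lower, but its probe may also read the near-identical CDK11B.

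CCNC, which encodes the cyclin of the Mediator kinases, was 1.81-fold higher, and its other probes gave 0.24 and 1.04. Its partner kinases CDK8 and CDK19, named after their values were seen, stood at -0.46 and -0.49.

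**Figure D4:**
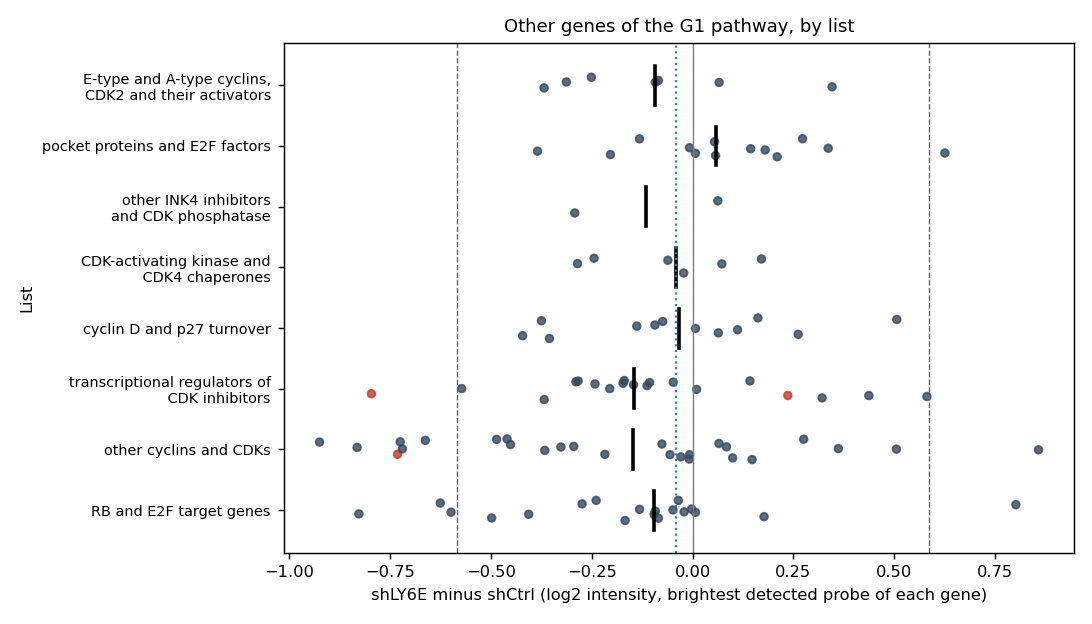
Difference of each detected gene of the 8 pathway lists, shLY6E minus shCtrl in log2 intensity; points are genes (red on chromosome 10), black bars are list medians, the dotted line is the median of all detected genes (-0.04) and dashed lines mark 1.5-fold. The medians lie between -0.15 and 0.06, and 7 points of the list of other cyclins and CDKs lie beyond 1.5-fold.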

How the data were processed

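Expression was measured on 1 array for each of shLY6E and shCtrl, grouped by the sample titles. The deposited table gave an unnormalized linear intensity and a detection p-value per probe and array, per the file headers. The authors' processed intensities came in a second deposited table; from its values its scale is linear, background was removed and the columns share 1 distribution (median 6.14 in both columns, 25.5% of values below 0). For the scanner software and the steps behind these values, the sources used here give nothing. Unmapped columns numbered 0.

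Here the unnormalized intensities were background-corrected (normexp through the detection p-values, offset 16), quantile-normalized and put on the log2 scale with limma 3.58.1 in R 4.3.3; later steps used Python 3.11.15. The platform annotation named probes, and a RefSeq table of GRCh38.p14 matched 30074 of 30113 by Entrez ID and gave chromosomes. A probe detected on 1 array only was compared with the faintest detected probe of the other array, or with its own value there if higher, as a bound. The steps were tested on simulated data, with known folds given only to probes well above background. The test thus does not cover readings as dim as those of CCND1, CDKN1C and the dimmer CDKN1B probe.

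The members, lists and thresholds were chosen with earlier results of these data known. Named were all members, LY6E, and from each list up to 4 genes by size and all at least 1.5-fold apart; MYC, SP1, SP3, CCNE2, CDK8 and CDK19 were named outside this rule, after their values were seen. With 1 array per group no test was made. The 8 other settings chosen first were no background correction, median scaling, offset 50, the authors' processed intensities (floored at 0 with 16 added), averaging a gene's probes, and 3 detection rules: under 0.05, both arrays, or none. Measured differences in place of bounds, and leaving out chromosome 10, were chosen after seeing the data.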

Additional observations from a re-analysis of the deposited data

How the results depend on the processing

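Under the 4 settings that recompute intensities (no background correction, median scaling, offset 50 and the authors' processed intensities), 36 of 36 values for the 9 detected member probes had the sign of the main value. The CDKN1C values among them are bounds that cannot rise above 0, so they could not take the other sign. The other settings cannot change a probe detected on both arrays. Without background correction the count of member probes, and of member genes, at least 1.5-fold higher was 0, as it was with an offset of 50; both settings shrink dim differences by construction. The count at least 1.5-fold lower was 2, by probe and by gene, with a detection p-value under 0.05, with no detection filter and with measured differences, since CDKN1C then has no bound and stood at 1.51-fold lower. Over all named probes, those at least 1.5-fold higher and lower numbered 364 and 380 without background correction and 615 and 716 with offset 50. At 2-fold they numbered 110 and 58, and 190 and 145. The median of the other INK4 genes and CDKN3 was 0.20 with measured differences, resting on CDKN2B near its detection limit. The other list medians moved by less than the spread between probes (0.28) under the settings tried. That is a loose measure, since the medians themselves ran only from -0.15 to 0.06. The median of the CDK-activating kinase and CDK4 chaperones changed sign with median scaling, from -0.04 to 0.11. That of the other cyclins and CDKs went from -0.15 to -0.06 without background correction. Background limits the dim members: detected probes had a median intensity 2.15 times that of undetected ones in shLY6E, and 2.48 times on the control array. No paired analysis was possible because shLY6E and shCtrl are single arrays.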
